A study of Mus musculus with 21 samples.

Results

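Genes that type I interferon induces were examined in activated CD8+ T cells of the mouse after culture in medium conditioned by leukaemia cells, in medium conditioned by dendritic cells, or in fresh medium. The set was a list of 37 interferon-stimulated antiviral genes taken by symbol, with 1 transcript cluster per symbol, and 36 of them were measured among 19505 genes in all. *Ifi44* is not analysed here. T cells were isolated from the spleens of wildtype mice, activated with beads that bind CD3 and CD28, and cultured for 48 h before CD8+ cells were recovered by magnetic separation for RNA extraction and hybridisation to Affymetrix arrays. The first group received the filtered supernatant of WEHI 3B cells (AML-conditioned medium), a single mouse myelomonocytic leukaemia line that stands here for acute myeloid leukaemia. The second received the filtered supernatant of dendritic cells derived from bone marrow (DC-conditioned medium), and the third received fresh medium. Each group had 7 arrays, labelled as biological replicates 1 to 7, and the bead activation, the base medium and the spleen origin were common to all 21.

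Type I interferons signal through the receptor pair IFNAR1 and IFNAR2 and the kinases JAK1 and TYK2. These activate a complex that contains STAT2 and IRF9 and binds the interferon-stimulated response element in promoters. The induced proteins sense viral nucleic acid, degrade or sequester viral RNA, block viral assembly, or feed back on the pathway. In activated CD8+ T cells the same pathway is known to act as a further signal for expansion and effector differentiation.

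The core of the response element reads GAAA, then 2 bases of any kind, then GAAA, and appears as TTTC, 2 bases and TTTC when it lies on the other strand. Both strands were searched in RefSeq promoter windows of GRCm38.p6 that run from 250 bases before to 50 bases after each annotated start. Of the 37 listed genes 27 had a window, and 13 of these (48.1%) held at least 1 match, against 1079 of 27025 genes with a window (3.99%). Overlapping matches were counted separately. The windows below belong to the member with the largest difference after AML-conditioned medium, its near-identical neighbour, and *Ifit1*, a family member that did not pass. The others are those of the called members *Stat2* and *Ifih1* with a match, and of a member with 3 overlapping matches that was not called. Windows without a match are not shown, among them those of the uncalled *Ifit2* and of the called *Oasl2* and *Ifi35*. Capitals mark the matches, and each sequence reads 5′ to 3′ on the strand of the gene.
*Ifit3*, chr19:34583279-34583578, plus strand: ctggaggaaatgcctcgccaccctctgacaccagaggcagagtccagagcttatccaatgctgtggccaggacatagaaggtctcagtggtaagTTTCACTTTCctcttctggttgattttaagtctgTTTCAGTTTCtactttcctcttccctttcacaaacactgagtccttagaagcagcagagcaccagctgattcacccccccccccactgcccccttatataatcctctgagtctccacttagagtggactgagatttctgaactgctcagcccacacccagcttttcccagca
*Ifit3b*, chr19:34607707-34608006, plus strand: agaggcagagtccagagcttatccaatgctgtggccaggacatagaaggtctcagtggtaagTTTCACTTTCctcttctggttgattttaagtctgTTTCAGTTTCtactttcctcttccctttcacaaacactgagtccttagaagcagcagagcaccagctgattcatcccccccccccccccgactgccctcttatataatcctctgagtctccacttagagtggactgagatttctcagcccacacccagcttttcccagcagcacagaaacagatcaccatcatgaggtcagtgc
*Ifit1*, chr19:34640639-34640938, plus strand: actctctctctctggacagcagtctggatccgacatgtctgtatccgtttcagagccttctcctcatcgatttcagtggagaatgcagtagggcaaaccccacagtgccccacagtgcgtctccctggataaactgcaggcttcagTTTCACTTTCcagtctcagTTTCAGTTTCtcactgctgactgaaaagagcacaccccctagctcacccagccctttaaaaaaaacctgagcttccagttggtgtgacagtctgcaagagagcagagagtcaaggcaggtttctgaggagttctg
*Stat2*, chr10:128270248-128270547, plus strand: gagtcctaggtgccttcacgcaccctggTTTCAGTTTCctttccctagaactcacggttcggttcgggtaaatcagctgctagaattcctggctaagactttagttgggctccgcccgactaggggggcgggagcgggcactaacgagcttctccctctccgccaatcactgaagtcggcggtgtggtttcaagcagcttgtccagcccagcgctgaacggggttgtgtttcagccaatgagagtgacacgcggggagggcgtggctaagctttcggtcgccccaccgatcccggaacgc
*Ifih1*, chr2:62646206-62646505, minus strand: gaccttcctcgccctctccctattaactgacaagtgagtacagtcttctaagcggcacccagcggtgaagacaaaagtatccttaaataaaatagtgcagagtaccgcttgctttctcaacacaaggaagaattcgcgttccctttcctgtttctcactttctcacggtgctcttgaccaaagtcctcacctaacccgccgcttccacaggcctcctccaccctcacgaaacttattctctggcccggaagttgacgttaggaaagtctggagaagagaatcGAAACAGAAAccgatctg
*Isg15*, chr4:156200769-156201068, minus strand: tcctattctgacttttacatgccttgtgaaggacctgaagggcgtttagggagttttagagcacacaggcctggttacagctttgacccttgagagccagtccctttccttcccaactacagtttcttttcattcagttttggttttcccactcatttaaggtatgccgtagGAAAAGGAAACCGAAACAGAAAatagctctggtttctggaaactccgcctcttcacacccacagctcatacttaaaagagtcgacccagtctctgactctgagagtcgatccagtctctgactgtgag
The windows of *Ifit3* and its neighbour *Ifit3b* were identical at 201 of 268 bases (75%) when aligned without gaps at a shift of 32 bases. A run of C bases differs in length between them, so bases after it are out of step and this share understates their likeness. Each window held 2 matches. In *Ifit3* the matches covered positions -156 to -147 and -122 to -113, counted from 0 at the first base of the start. Of the members called between AML-conditioned and fresh medium 5 had a window and 3 of them held a match, against 10 of 21 measured members with a window that were not called. A match is a run of letters, and binding was not measured.

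**Figure D1:**
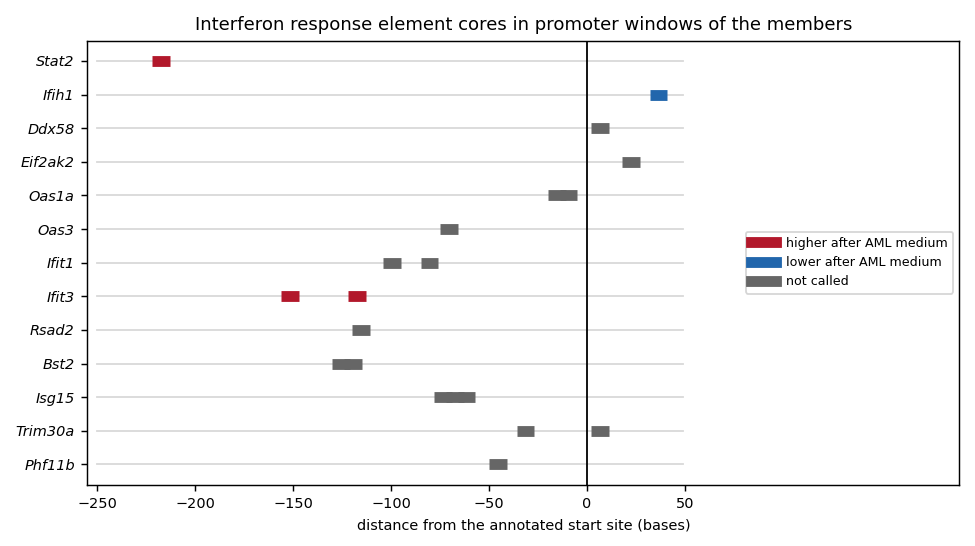
Positions of response element cores in the promoter windows of the 13 members that held a match, in bases from the annotated start (grey line, the window; block, a match; black line, the start). Red blocks belong to members higher and blue to members lower after AML-conditioned than fresh medium; *Ifit3* has 2 separate blocks upstream of the start, *Ifih1* 1 downstream of it.

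Values were log2 expression values made by the authors, and differences are given on that scale. A gene was called at a Benjamini-Hochberg adjusted p under 0.05 over all 19505 genes in limma. The arrays correlated with each other at 0.979 to 0.996 over all genes, and the median standard error of a difference was 0.0937. The mean log2 level over 7 T cell markers was 10.87 to 11.11 in AML-conditioned, 10.85 to 11.12 in DC-conditioned and 10.87 to 11.06 in fresh medium. No T cell marker was called in any comparison. The description field of the labels, unlike all others, gives CXCL12-abundant reticular cells as the source, and the 7 reticular cell markers had mean log2 levels of 4.45 to 4.68 in AML-conditioned, 4.32 to 4.52 in DC-conditioned and 4.38 to 4.69 in fresh medium, with 0 called. The 11 markers of dendritic and myeloid cells (3.59 to 3.73, 3.56 to 3.83 and 3.54 to 3.75 in AML-conditioned, DC-conditioned and fresh medium) and the 6 B cell markers also had 0 called.

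After AML-conditioned medium a few interferon-stimulated genes were higher than in fresh medium and most were not called. *Ifit3*, whose product binds other IFIT proteins that recognise viral RNA, was 2.18-fold higher, *Rtp4*, a chaperone of membrane receptors, 1.82-fold and *Oasl2*, a relative of the oligoadenylate synthetases, 1.43-fold. *Stat2*, a subunit of the factor that drives these genes, was 1.27-fold and *Ifi35*, an interferon-induced leucine zipper protein, 1.21-fold higher. The RNA helicase genes *Ifih1*, which encodes MDA5, and *Dhx58*, which encodes LGP2, were 1.34-fold and 1.37-fold lower. In all, 5 of 36 members rose, 2 fell and 29 were not called (19.4% called), while over all genes 2.77% were called, 1.30% higher and 1.48% lower. The median difference of the members was 0.05, against -0.01 over all genes. At an unadjusted p under 0.05 in limma, 16 of 36 members differed, against 3100 of 19505 over all genes. Without AML replicate 4 the counts were 3 higher and 0 lower, and without fresh replicate 4 or 5 or AML replicate 5 no member was called lower. In RNA of whole samples, a change in the share of a cell type and a change in RNA per cell cannot be told apart.

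**Figure D2:**
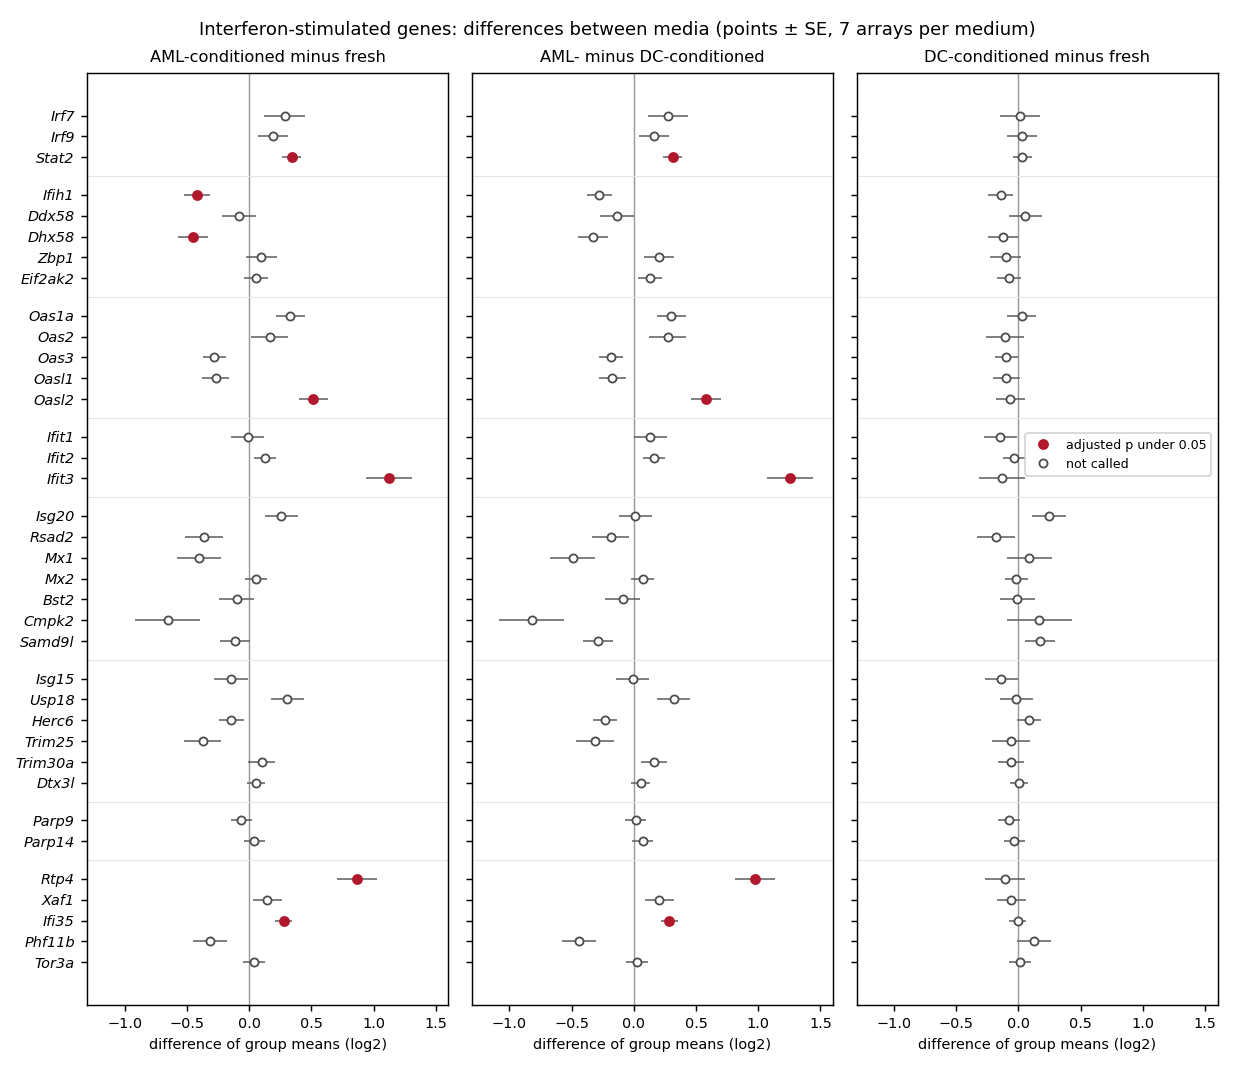
Difference of group means (x axis, log2; points with standard error bars) for the 36 members, in blocks by role, for AML-conditioned minus fresh, AML-conditioned minus DC-conditioned and DC-conditioned minus fresh medium. Filled points passed an adjusted p of 0.05: 7 in the first panel, 5 in the second and 0 in the third, with *Ifit3* farthest to the right in both panels that involve AML-conditioned medium.

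The signal-responsive transcription factors of the pathway are given first. *Stat2* had log2 values with a lowest, median and highest of 8.61, 8.78 and 9.03 in AML-conditioned, 8.40, 8.53 and 8.58 in DC-conditioned and 8.31, 8.47 and 8.69 in fresh medium. All 7 AML arrays lay above all DC arrays, and 4 lay above all fresh arrays, of which replicate 2 was the highest. AML replicates 1 to 3 were at 9.02, 8.98 and 9.03 and replicates 4 to 7 at 8.61 to 8.78. The difference from fresh medium was 0.34 (SE 0.08, adjusted p = 0.0146). *Irf7*, the factor that amplifies interferon production, averaged 7.40 ± 0.36 in AML-conditioned, 7.13 ± 0.38 in DC-conditioned and 7.12 ± 0.29 in fresh medium (SD, n = 7 each) and was not called (0.29, adjusted p = 0.414). *Irf9*, the DNA-binding partner of STAT2, averaged 8.38 ± 0.27, 8.22 ± 0.27 and 8.19 ± 0.18 in AML-conditioned, DC-conditioned and fresh medium, and was not called (0.19, adjusted p = 0.468). For both, AML replicates 1 to 3 were among the highest arrays, as the map of all members by array shows. In DC-conditioned medium *Irf9* was at 8.51, 8.37 and 8.54 in replicates 1 to 3 and at 7.87 to 8.23 in replicates 4 to 7. For *Irf7* these DC arrays overlapped.

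Among the 5 sensors of nucleic acid, 2 fell and none rose. *Ifih1* ranged over 6.68, 6.87 and 7.11 (lowest, median, highest) in AML-conditioned, 6.84, 7.17 and 7.42 in DC-conditioned and 7.06, 7.31 and 7.59 in fresh medium. AML replicates 3 and 6 overlapped the fresh arrays and the other 5 lay below all of them, and the difference was -0.42 (SE 0.10, adjusted p = 0.0242). *Dhx58* ranged over 5.96, 6.42 and 6.85 in AML-conditioned, 6.39, 6.85 and 7.08 in DC-conditioned and 6.76, 6.81 and 7.15 in fresh medium. AML replicate 6 lay within the fresh range, the other 6 lay below it, and replicates 4 and 5 were the lowest arrays. The difference was -0.45 (SE 0.12, adjusted p = 0.0431). *Ddx58*, which encodes the third helicase of this family, RIG-I, differed by -0.08 (SE 0.14). *Zbp1*, a sensor of Z-form nucleic acid, differed by 0.10 (SE 0.12), and *Eif2ak2*, which encodes the RNA-dependent kinase PKR, by 0.06 (SE 0.10).

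Both calls were lost in some fits that left out 1 array, while the differences kept their sign in 34 of 34 alternatives. *Dhx58* was not called (-0.47 to -0.37, adjusted p = 0.0505 to 0.120) when any 1 of DC replicates 5 and 7, fresh replicates 1 to 7 or AML replicates 1 to 5 was left out. Removal of DC replicate 5 or 7 left its difference from fresh medium unchanged at -0.45. The call of *Ifih1* was lost on removal of replicate 4 or 5 of the fresh or of the AML group (-0.42 to -0.37, adjusted p = 0.0517 to 0.0580). It also ended when each array was centred on its median (-0.39, adjusted p = 0.0524), as did that of *Dhx58* (-0.43, adjusted p = 0.0556).

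The oligoadenylate synthetase family makes the second messenger that activates RNase L, or binds double-stranded RNA without enzyme activity. *Oasl2* was at 5.11, 5.44 and 5.82 (lowest, median, highest) in AML-conditioned, 4.51, 4.89 and 5.13 in DC-conditioned and 4.61, 4.98 and 5.23 in fresh medium. AML replicates 1 and 7 overlapped the other arrays and the other 5 lay above all 14 of them. The difference from fresh medium was 0.52 (SE 0.12, adjusted p = 0.0186), and the call ended without AML replicate 4 (0.45, adjusted p = 0.0526). *Oas1a* averaged 5.15 ± 0.22 in AML-conditioned, 4.84 ± 0.23 in DC-conditioned and 4.82 ± 0.24 in fresh medium (0.33, adjusted p = 0.133), with 5 of 7 AML arrays above all others. *Oas3* averaged 5.79 ± 0.22, 5.97 ± 0.12 and 6.07 ± 0.18 in the same order of media (-0.28, adjusted p = 0.109) and was called in 1 of 34 alternatives, without fresh replicate 7 (-0.34, adjusted p = 0.0463). *Oas2* at 0.16 (SE 0.15) and *Oasl1* at -0.27 (SE 0.11) were not called.

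The IFIT genes lie close together on chromosome 19, and proteins of this family bind viral RNA. *Ifit3* had log2 values of 7.78, 8.06, 8.12, 8.71, 8.59, 7.21 and 7.11 in AML replicates 1 to 7. The lowest, median and highest values were 6.32, 6.70 and 6.96 in DC-conditioned and 6.52, 6.90 and 6.98 in fresh medium. All 7 AML arrays lay above all 14 others, replicates 4 and 5 were highest, and replicates 6 and 7 lay just above the highest fresh array. The difference was 1.12 (SE 0.18, adjusted p = 0.00180), and *Ifit3* was the only member whose AML arrays all lay above the fresh arrays, against 0.354% of all genes. None had all AML arrays below them, against 0.441% of all genes. *Ifit1*, which recognises uncapped or incompletely capped RNA, averaged 5.94 ± 0.33 in AML-conditioned, 5.81 ± 0.14 in DC-conditioned and 5.95 ± 0.29 in fresh medium. *Ifit2*, another RNA-binding member, averaged 7.21 ± 0.15, 7.05 ± 0.20 and 7.08 ± 0.13 in AML-conditioned, DC-conditioned and fresh medium, and neither was called (-0.01, SE 0.13, for *Ifit1* and 0.13, SE 0.09, for *Ifit2*).

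*Ifit3b*, the near-identical copy of *Ifit3*, is not in the list of 37 and may share probes with it, so the signals of both are uncertain as separate measurements. It averaged 7.58 ± 0.75 in AML-conditioned, 6.32 ± 0.33 in DC-conditioned and 6.43 ± 0.16 in fresh medium. AML replicate 7, at 6.21, lay within the fresh range of 6.20 to 6.62, and the other 6 AML arrays lay above it. The difference was 1.15 (SE 0.23, adjusted p = 0.00654), and 0.84 (adjusted p = 0.0565) without AML replicates 4 and 5.

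**Figure D3:**
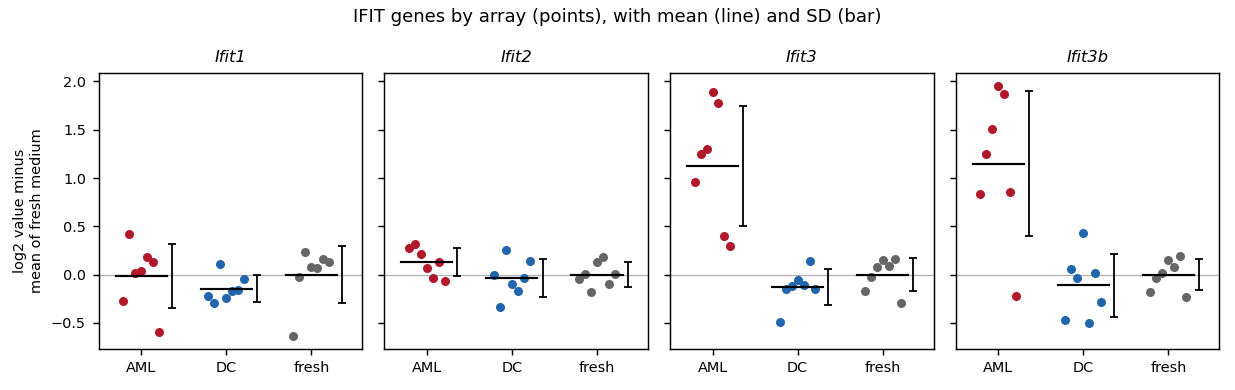
Log2 value of each array minus the mean of the fresh-medium arrays (y axis) for *Ifit1*, *Ifit2*, *Ifit3* and *Ifit3b*, by medium, with the mean (line) and SD (bar). In *Ifit3* all 7 AML points lie above all other points, in *Ifit3b* 6 of 7 lie above the fresh points, and in *Ifit1* and *Ifit2* the media overlap.

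None of the 7 other antiviral effectors was called against fresh medium. *Cmpk2*, a mitochondrial nucleotide kinase, had the most uneven AML values of this group, at 5.02 and 5.17 in AML replicates 4 and 5 and at 6.65 to 7.15 in the other 5, against 6.82 to 7.58 in DC-conditioned and 6.72 to 7.25 in fresh medium. Its difference from fresh medium was -0.65 (SE 0.26, adjusted p = 0.201). *Rsad2*, which encodes viperin, an enzyme that makes a chain-terminating nucleotide, averaged 4.89 ± 0.42 in AML-conditioned, 5.08 ± 0.23 in DC-conditioned and 5.26 ± 0.26 in fresh medium (-0.37, adjusted p = 0.223). *Mx1*, a GTPase that blocks influenza viruses in the nucleus, averaged 4.59 ± 0.48, 5.08 ± 0.25 and 4.99 ± 0.38 in the same media (-0.40, adjusted p = 0.261). The exonuclease gene *Isg20* differed by 0.26 (adjusted p = 0.361) and passed in 1 of 34 alternatives, without AML replicate 7 (0.39, adjusted p = 0.0404). The remaining differences were 0.05 for *Mx2*, the cytoplasmic relative of *Mx1*, -0.10 for *Bst2*, which encodes the virion tether tetherin, and -0.12 for *Samd9l*, a translation inhibitor.

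The ubiquitin-like modifier system and the ubiquitin ligases also had 0 of 6 members called. *Isg15*, which encodes the modifier itself, averaged 4.42 ± 0.29 in AML-conditioned, 4.43 ± 0.27 in DC-conditioned and 4.56 ± 0.27 in fresh medium (-0.15, adjusted p = 0.658). *Usp18*, the protease that removes ISG15 and dampens the interferon receptor, averaged 7.71 ± 0.35, 7.39 ± 0.21 and 7.40 ± 0.24 in the same media (0.31, adjusted p = 0.251), with 4 of 7 AML arrays above all others. *Trim25*, a ligase that activates RIG-I, averaged 8.52 ± 0.46, 8.84 ± 0.20 and 8.90 ± 0.20 (-0.37, adjusted p = 0.205). *Herc6*, the mouse ISG15 ligase, differed by -0.14, *Trim30a*, a restrictor of NF-kB signalling, by 0.10 and *Dtx3l*, the ligase partner of PARP9, by 0.06. The ADP-ribosyltransferase family genes *Parp9* and *Parp14* differed by -0.06 and 0.04.

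In the remaining group of interferon-induced genes 2 of 5 rose. *Rtp4* was at 5.28, 5.75 and 6.25 (lowest, median, highest) in AML-conditioned, 4.34, 4.68 and 5.27 in DC-conditioned and 4.40, 4.86 and 5.41 in fresh medium. All 7 AML arrays lay above all DC arrays, and all but replicate 7 lay above all fresh arrays. The difference from fresh medium was 0.87 (SE 0.16, adjusted p = 0.00516). *Ifi35* was at 7.66, 7.93 and 8.08 in AML-conditioned, 7.49, 7.65 and 7.68 in DC-conditioned and 7.40, 7.67 and 7.71 in fresh medium, with AML replicate 6 overlapping both other groups and the other 6 AML arrays above all 14 arrays. Its difference of 0.28 (SE 0.07, adjusted p = 0.0290) did not pass when replicate 1, 2 or 3 of the fresh group or replicate 3, 4 or 5 of the AML group was left out (0.24 to 0.27, adjusted p = 0.0524 to 0.0854). *Xaf1*, which encodes a pro-apoptotic partner of XIAP, differed by 0.15 (SE 0.12), *Phf11b*, a PHD finger gene, by -0.32 (adjusted p = 0.244) and *Tor3a*, an ATPase gene of the torsin family, by 0.04 (SE 0.09).

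**Figure D4:**
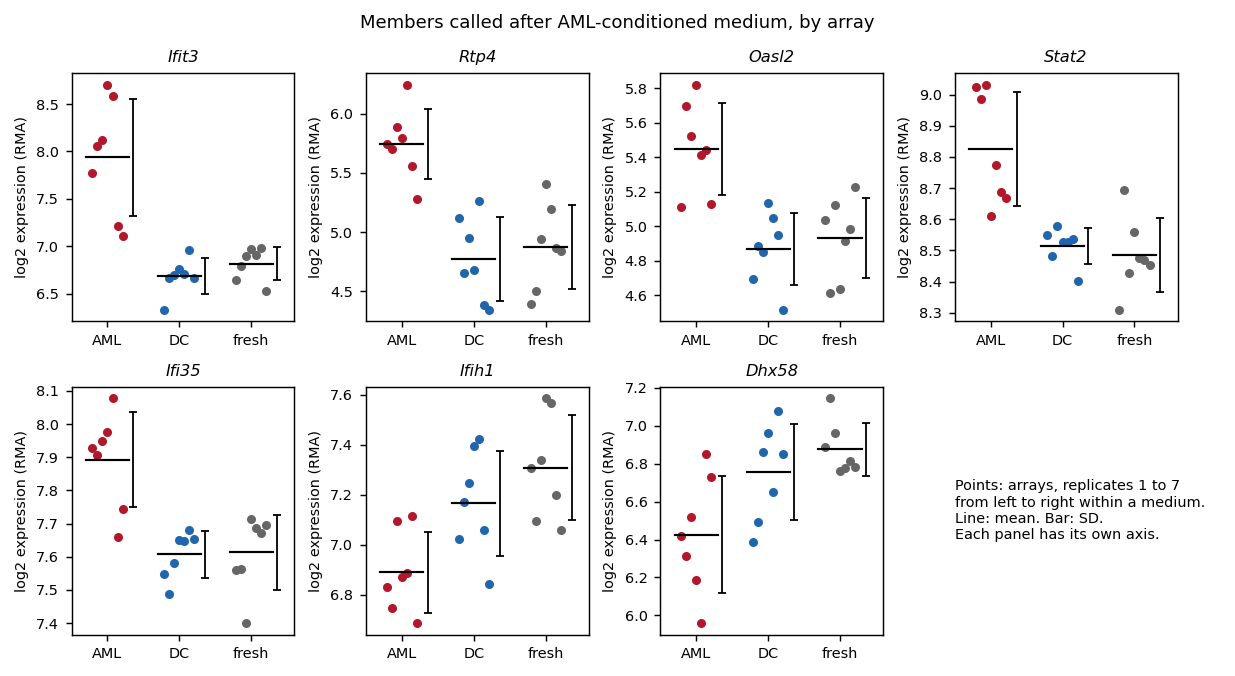
Log2 expression of the 7 members called after AML-conditioned medium (y axis, its own scale in each panel) by medium, each point 1 array with replicates 1 to 7 from left to right, the line the mean and the bar the SD. The AML points lie highest in *Ifit3*, *Rtp4*, *Oasl2*, *Stat2* and *Ifi35* and lowest in *Ifih1* and *Dhx58*, with complete separation from both other media only in *Ifit3*.

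Against DC-conditioned medium, AML-conditioned medium gave rises in *Ifit3*, *Rtp4*, *Oasl2*, *Stat2* and *Ifi35* and no fall. This comparison uses the same AML arrays as the one with fresh medium, so the values stand side by side and are not independent, and the higher level of *Ifit3* here was known when the list was drawn up. Of 36 members, 5 rose, 0 fell and 31 were not called (13.9%), while 2.39% of all genes were called, 1.13% higher and 1.26% lower. The median difference was 0.06, against 0.01 over all genes. At an unadjusted p under 0.05 in limma, 15 members differed, against 2782 of 19505 over all genes. *Ifit3* was higher by 1.26 (2.39-fold, SE 0.18, adjusted p = 0.000671), *Rtp4* by 0.97 (1.96-fold, SE 0.16, adjusted p = 0.00257) and *Oasl2* by 0.58 (1.50-fold, SE 0.12, adjusted p = 0.00964). *Stat2* was higher by 0.31 (SE 0.08, adjusted p = 0.0247) and *Ifi35* by 0.28 (SE 0.07, adjusted p = 0.0256). Without AML replicate 1 or 3 the count of rises was 3, and without AML replicate 6 there were 2 falls. In 3 of these 5 genes, *Ifit3*, *Rtp4* and *Stat2*, all 7 AML arrays lay above all 7 DC arrays, which held for 0.436% of all genes, and in none did all lie below, against 0.379%. The call of *Stat2* was lost on removal of DC replicate 7 or of AML replicate 1, 2 or 3 (0.28 to 0.29, adjusted p = 0.0568 to 0.0615), and that of *Ifi35* on removal of DC replicate 1 or 2 or of AML replicate 1, 3, 4 or 5 (0.25 to 0.28, adjusted p = 0.0502 to 0.0764).

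Several members that were not called had lower means after AML-conditioned than DC-conditioned medium. *Cmpk2* differed by -0.82 (SE 0.26, adjusted p = 0.103), *Mx1* by -0.49 (SE 0.18, adjusted p = 0.167) and *Phf11b* by -0.44 (SE 0.14, adjusted p = 0.0937). *Cmpk2* (-0.94, adjusted p = 0.0427) and *Mx1* (-0.61, adjusted p = 0.0453) were called when AML replicate 6 was left out, and *Phf11b* (adjusted p = 0.0134) when replicates 1 to 3 and 4 to 7 formed a block. *Ifih1* and *Dhx58*, which were lower than in fresh medium, differed from DC-conditioned medium by -0.28 (adjusted p = 0.168) and -0.33 (adjusted p = 0.173). *Usp18* at 0.32 (adjusted p = 0.245), *Oas1a* at 0.30 (adjusted p = 0.200), *Samd9l* at -0.29 (adjusted p = 0.256) and *Irf7* at 0.27 (adjusted p = 0.483) were not called either. The remaining 22 members not called lay between -0.31 for *Trim25* and 0.27 for *Oas2*.

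DC-conditioned medium gave no call among the members against fresh medium. The comparison had 0 of 36 members called in limma and 0 at an unadjusted p under 0.05, and over all genes 0% were called, with 1251 of 19505 at an unadjusted p under 0.05. In no member did all DC arrays lie above or all below the fresh arrays, against 0.0359% and 0.0769% of all genes. The members' differences ran from -0.18 for *Rsad2* to 0.25 for *Isg20*, with a median of -0.03 against -0.01 over all genes. *Ifit3* differed by -0.13 (SE 0.18), *Rtp4* by -0.11 (SE 0.16), *Oasl2* by -0.07 (SE 0.12), *Stat2* by 0.03 (SE 0.08) and *Ifi35* by -0.01 (SE 0.07). A difference that misses the threshold does not show equal levels.

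The AML arrays did not behave as 1 block over the members. Averaged over all 36, the members stood at 0.11, 0.16, 0.20, -0.13, -0.11, 0.15 and -0.14 in AML replicates 1 to 7 relative to the fresh-medium mean, against -0.15 to 0.08 in DC-conditioned and -0.12 to 0.12 in fresh medium. The average thus lay above every DC and fresh array in AML replicates 2, 3 and 6 and near the lowest of them in AML replicates 4, 5 and 7. In replicates 4 and 5, 13 of 36 members lay below all other AML arrays, among them *Cmpk2*, *Rsad2*, *Trim25*, *Usp18*, *Isg15*, *Phf11b*, *Dhx58*, *Ddx58* and *Eif2ak2*, and 4 lay above them, *Ifit3*, *Parp14*, *Ifi35* and *Tor3a*. Over all genes these shares were 13% below and 11.4% above. In replicates 6 and 7, 6 members lay below the other 5 AML arrays, *Ifit3*, *Ifi35*, *Rtp4*, *Isg20*, *Zbp1* and *Tor3a*, and 2 lay above, *Dhx58* and *Eif2ak2*, against 7.25% and 7.14% of all genes.

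**Figure D5:**
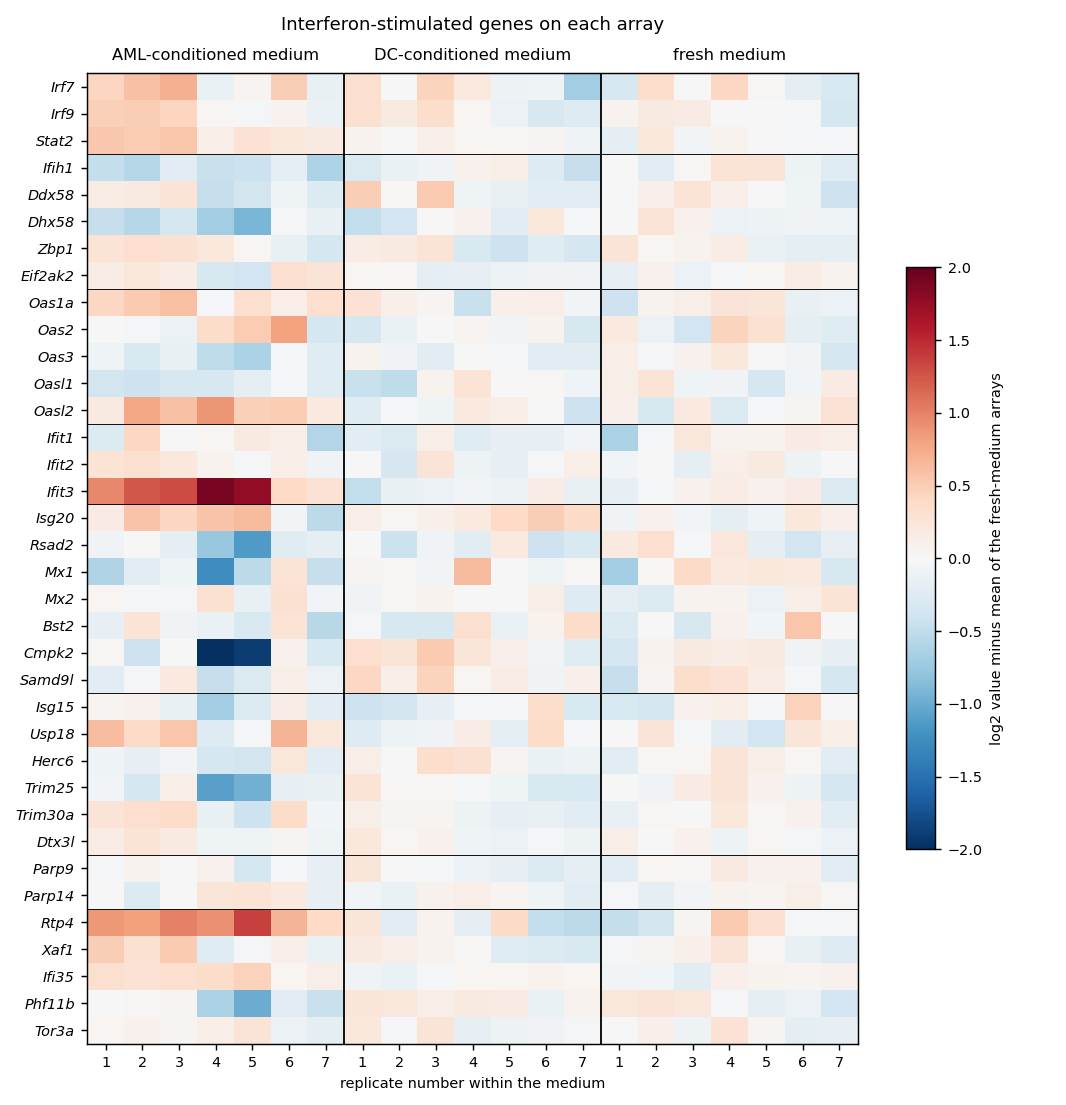
Log2 value minus the mean of the fresh-medium arrays (colour, red higher and blue lower, values beyond the scale at its end colour) for the 36 members (rows, in blocks by role) on the 21 arrays (columns, by medium and replicate). *Ifit3* and *Rtp4* are red across the AML arrays, and *Cmpk2* is darkest blue in AML replicates 4 and 5.

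When AML replicates 4 and 5 were left out, 3 members rose and 0 fell against fresh medium. *Ifit3* (0.84, adjusted p = 0.00844), *Rtp4* (0.76, adjusted p = 0.0444) and *Stat2* (0.40, adjusted p = 0.0202) passed. *Oasl2* (0.45, adjusted p = 0.117), *Ifi35* (0.22, adjusted p = 0.196), *Ifih1* (-0.41, adjusted p = 0.110) and *Dhx58* (-0.31, adjusted p = 0.295) did not. Against DC-conditioned medium 3 members passed without these arrays, *Ifit3* at 0.97 (adjusted p = 0.00168), *Rtp4* at 0.86 (adjusted p = 0.0202) and *Stat2* at 0.36 (adjusted p = 0.0362). In replicates 1 to 3 alone *Ifit3* was higher than in fresh medium by 1.21 (adjusted p = 0.000742), and in replicates 4 to 7 alone it differed by 1.06 (adjusted p = 0.132). *Stat2* differed by 0.54 (adjusted p = 0.0298) in replicates 1 to 3 and by 0.20 (adjusted p = 0.237) in replicates 4 to 7, and *Rtp4* by 1.17 (adjusted p = 0.00216) and 0.64 (adjusted p = 0.188). The labels do not name these sets as batches, and the split was taken from an earlier analysis of the same arrays. The main fit had no term for these sets. Relative to the fresh-medium mean, the T cell marker average separated them in every medium. It was 0.07 to 0.10 in fresh replicates 1 to 3 and -0.08 to -0.03 in fresh replicates 4 to 7. In DC-conditioned medium it was 0.14 to 0.16 and -0.11 to -0.04, and in AML-conditioned medium 0.07 to 0.16 and -0.09 to 0.04. The reason for the split was not tested.

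Variation within the media was described by correlations after the group means were removed. The mean correlation between pairs of members was 0.168 over the 21 arrays, against 0.00287 between pairs of all genes. Within the media it was 0.227 in AML-conditioned, 0.109 in DC-conditioned and 0.131 in fresh medium, over 7 arrays each. *Irf7* had a mean correlation of 0.38 with the other members, and *Ifit3* one of -0.05. These are descriptions over arrays on which all members share the RNA sample, the hybridisation and the normalization.

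The other steps of the pathway were followed in lists of its known genes. For comparison with the counts here and below, 2.77% of all genes were called between AML-conditioned and fresh medium. The shares were 2.39% between AML- and DC-conditioned and 0% between DC-conditioned and fresh medium. At these shares a short list would hold few calls or none. Of 16 type I interferon ligand genes 0 were called in any comparison. Their mean log2 level was 3.78 to 4.07 in AML-conditioned, 3.90 to 4.05 in DC-conditioned and 3.91 to 4.12 in fresh medium. The array medians of all genes were 5.35 to 5.52, so low signal limits what the ligand genes can show. *Ifnb1*, which encodes interferon beta, averaged 4.09 ± 0.23 in AML-conditioned, 4.09 ± 0.11 in DC-conditioned and 4.07 ± 0.21 in fresh medium. The receptor and kinase list had 0 of 4 members called, with *Ifnar1* at -0.18 (SE 0.10), *Ifnar2* at -0.01 (SE 0.08), *Jak1* at -0.02 (SE 0.11) and *Tyk2* at -0.08 (SE 0.09) between AML-conditioned and fresh medium. *Irf3*, the factor that starts interferon transcription, differed by 0.13 (SE 0.09) between AML-conditioned and fresh medium.

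Among 12 genes that act upstream of interferon production 1 was called, *Tlr7*, the endosomal receptor for single-stranded RNA. It was at 8.56, 9.02 and 9.60 (lowest, median, highest) in AML-conditioned, 7.27, 7.68 and 7.78 in DC-conditioned and 7.34, 7.78 and 7.96 in fresh medium. No AML array overlapped the others, and the differences were 1.38 (SE 0.14, adjusted p = 3.14e-06) from fresh and 1.49 (SE 0.14, adjusted p = 1.20e-06) from DC-conditioned medium. Of 8 negative regulators *Socs1*, an inhibitor of JAK kinases, rose, and 7 were not called. *Socs1* averaged 8.92 ± 0.24 in AML-conditioned, 8.46 ± 0.10 in DC-conditioned and 8.53 ± 0.17 in fresh medium, with differences of 0.46 (adjusted p = 0.00964) from DC-conditioned and 0.39 (adjusted p = 0.0256) from fresh medium. The call of *Socs1* against fresh medium was lost on removal of replicate 3 or 6 of the fresh group or replicate 2 or 5 of the AML group (0.33 to 0.37, adjusted p = 0.0506 to 0.0767).

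A further 45 measured genes that type I interferon is known to induce had a median difference of 0.11 between AML-conditioned and fresh medium, against -0.01 over all genes. Of these 2 rose, *Ifit3b* and *Trim30d*, and 1 fell, *Epsti1*, against 1.30% higher and 1.48% lower over all genes. *Trim30d*, a relative of *Trim30a*, differed by 0.58 (SE 0.15, adjusted p = 0.0380) and did not pass when fresh replicate 1, 2, 4, 5 or 7 was removed, nor when AML replicate 1, 2, 3, 5 or 6 was (0.45 to 0.61, adjusted p = 0.0513 to 0.0792). *Epsti1*, an interferon-induced gene first described in epithelial and stromal cultures, averaged 9.05 ± 0.15 in AML-conditioned, 9.46 ± 0.24 in DC-conditioned and 9.49 ± 0.18 in fresh medium. Its difference from fresh medium was -0.43 (SE 0.10, adjusted p = 0.0208), and the call ended without AML replicate 4 or 5 (-0.41 and -0.39, adjusted p = 0.0522 and 0.0617).

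Against DC-conditioned medium the same 45 genes had a median difference of 0.08, with 1 rise, *Ifit3b* (1.26, adjusted p = 0.00381), and 2 falls. *Epsti1* differed by -0.41 (adjusted p = 0.0289) and did not pass when DC replicate 1, 2, 3 or 7 was removed, nor when AML replicate 4 or 5 was (-0.40 to -0.36, adjusted p = 0.0605 to 0.0839). *Phf11a*, the neighbour of *Phf11b*, differed by -0.52 (adjusted p = 0.0264) and did not pass when DC replicate 3, 4 or 5 was removed, nor when AML replicate 4 or 5 was (-0.52 to -0.44, adjusted p = 0.0514 to 0.0768). Of 16 genes best known as induced by interferon gamma 1 rose, *Irgm1*, a GTPase of autophagy and vacuole defence, by 0.26 against fresh (adjusted p = 0.0397) and 0.27 against DC-conditioned medium (adjusted p = 0.0339). Its call against fresh medium was lost on removal of any 1 of fresh replicates 1 to 5 or AML replicates 2 to 5 (0.23 to 0.27, adjusted p = 0.0502 to 0.0965). Its call against DC-conditioned medium ended without any 1 of DC replicates 3 to 7 or AML replicates 2 to 5 (0.23 to 0.27, adjusted p = 0.0532 to 0.0878).

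*Cd4* and *Eomes*, from the marker lists of other lymphocytes, were higher in the same AML arrays. *Cd4*, the coreceptor of helper T cells, averaged 8.56 ± 0.43 in AML-conditioned, 8.02 ± 0.36 in DC-conditioned and 7.77 ± 0.31 in fresh medium (0.79 against fresh, SE 0.18, adjusted p = 0.0150). It was not called against DC-conditioned medium (0.54, adjusted p = 0.110; 0.67, adjusted p = 0.0181 without AML replicate 6), nor against fresh medium without AML replicates 4 and 5 (0.81, adjusted p = 0.0622). *Cd4* was the 1 marker of 3 called against fresh medium in the CD4 list. The list's mean log2 level ran from 6.39 to 6.99 in AML-conditioned, 6.17 to 6.75 in DC-conditioned and 6.02 to 6.56 in fresh medium. All 3 CD4 markers were higher than in fresh medium, by 0.17 to 0.79, and than in DC-conditioned medium, by 0.21 to 0.54. In both comparisons all 3 had an unadjusted p under 0.05 in limma, against 3100 and 2782 of 19505 genes. *Eomes*, a transcription factor of NK cells that effector CD8+ T cells also use, rose by 0.71 against fresh medium (SE 0.14, adjusted p = 0.00844), as 1 of 4 measured markers in the NK list, whose mean ran from 4.59 to 4.94, 4.41 to 4.71 and 4.41 to 4.78 in AML-conditioned, DC-conditioned and fresh medium. Of the 4 NK markers 3 had a positive and 1 a negative difference from fresh medium, from -0.29 to 0.71. *Eomes* was also higher than in DC-conditioned medium (0.79, adjusted p = 0.00457), and was not called against fresh medium without AML replicates 4 and 5 (0.50, adjusted p = 0.0705). The part of *Cd4* and *Eomes* in the differences of the members was not tested.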

How the data were processed

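RNA of 21 samples was hybridised to 1-colour Affymetrix arrays. Each deposited value is the log2 expression of a transcript cluster. The authors obtained it by RMA through the package oligo, as the submitters' processing notes say, and versions are not given in the sources used here. In RMA background is corrected, arrays are quantile-normalized and probes summarised, so low values are compressed. Of 36 members 9 had a mean under the median of all genes, among them the called *Rtp4* and *Oasl2*. The number of arrays limits the precision.

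Of 22203 transcript clusters 19572 had 1 gene symbol, 0 several and 2631 none. For 55 symbols with several clusters, none of them a member, the one with the highest mean was kept, which left 19505 genes. Symbols were checked against RefSeq genes of GRCm38.p6, which changed 0. Groups were compared with limma 3.58.1 in R 4.3.3, in 1 fit over all arrays without covariates or a filter on level, two-sided, with Benjamini-Hochberg adjustment over all genes, and calls were made at an adjusted p under 0.05. Where AML arrays spread more than the others, the shared spread understates their standard errors. The fit was tested on simulated data.

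The members and lists were chosen with earlier results of these data known. By rule, every member was named, per-array values were given for *Ifit3* and each called member, and of other lists the receptors, *Ifnb1*, *Irf3* and up to 4 called genes per list and comparison; *Cmpk2*, *Ifit3b* and single arrays were described in more detail after their values were seen. Alternatives were the replicate number as a fixed or random block, replicates 1 to 3 and 4 to 7 as a block or alone, a further quantile normalization, median centring, removal of genes under the 25th percentile of the mean, averaging of clusters, trended and robust variance, array weights, the 2 groups alone, each array left out, and AML replicates 4 and 5 left out.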

Additional observations from a re-analysis of the deposited data

Results flagged for a closer look

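Each member was examined for a single array far from the others of its medium, by the gap to its neighbour relative to the range of the group. This marked 3 of 108 groups of 7 arrays, where chance marks about 1 in 20. *Mx1* in DC replicate 4 was at 5.63, above 4.92 to 5.04 in the other DC arrays. *Irf9* in fresh replicate 7 was at 7.84, below 8.14 to 8.37 in the other fresh arrays. *Ifit1* in fresh replicate 1 was at 5.31, below 5.93 to 6.18 in the other fresh arrays.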

How the results depend on the processing

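Over 34 alternatives 90 of 108 results for single members kept the same status, and no called difference changed sign. These 90 were all results without a call, and each call of the main fit was lost in at least 1 alternative. *Ifit3* and *Rtp4* kept their calls in 33 of 34 in both AML comparisons, *Stat2* in 32 and 27, *Oasl2* in 30 and 31 and *Ifi35* in 25 and 24 (against fresh and DC-conditioned medium), and against fresh medium *Ifih1* in 25 and *Dhx58* in 15. The median of the members ran from -0.06 to 0.15 (AML-conditioned minus fresh), 0.04 to 0.11 (AML-conditioned minus DC-conditioned) and -0.07 to 0.06 (DC-conditioned minus fresh). The labels do not say that a replicate number pairs arrays, and pairing was not established: 13 of 21 same-number pairs correlated above 0.1 (-0.109 to 0.364), and 7 of 21 arrays matched their own number best. With the replicate number, or replicates 1 to 3 and 4 to 7, as the block, member counts matched the report except for *Phf11b*. This gene was lower than in DC-conditioned medium under both (-0.44, adjusted p = 0.0264 and 0.0134). Over all genes the replicate block gave 521 higher and 491 lower than in fresh medium, against 253 and 288 without it. The block of replicates 1 to 3 and 4 to 7 alone gave 529 and 497. Replicates 1 to 3 alone gave 1 member lower than in fresh and 3 higher than in DC-conditioned medium, one of them *Usp18* (0.65, adjusted p = 0.0115), and replicates 4 to 7 alone gave 0 in every direction. The 2 groups alone gave 3 higher and 1 lower against fresh and 3 higher against DC-conditioned medium. Median centring and array weights each gave 0 lower than in fresh medium. Without AML replicates 4 and 5 the counts were 3 higher and 0 lower against fresh and 3 higher against DC-conditioned medium. Leaving out 1 array gave 3 to 6 higher and 0 to 2 lower than in fresh medium, and 3 to 5 higher and 0 to 2 lower than in DC-conditioned medium. For DC-conditioned against fresh medium 0 members were called in each of the 34. Over all genes, replicates 1 to 3 alone gave 220 higher and 154 lower than in fresh medium, and replicates 4 to 7 alone 13 and 19. The cause of these changes, including the fewer arrays in each reduced fit, was not tested. Signal over background was not assessed for single arrays, which limits what low members such as *Oasl1* can show. The low members include the called genes *Rtp4* and *Oasl2*, with means of 5.13 and 5.08, under the median of 5.41 over all genes.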
